A study of Mus musculus with 4 samples.

Results

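Cadherins and protocadherins were read in nuclei from injured mouse brain. The set held every gene row whose symbol was Cdh or Pcdh followed by a number, the clustered protocadherins not included, with at least 100 unique molecular identifiers (UMIs, each a captured RNA molecule) over the deposited matrices. Of 33696 gene features, 35 symbols matched and 29 passed the minimum. The 6 symbols below it were Cdh15 with 43 UMIs, Cdh3 with 40, Pcdh12 with 30, Cdh26 with 11, Cdh17 with 7 and Cdh16 with 4. Just above it stood Pcdh18 with 300 UMIs, Pcdh20 with 358 and Pcdh8 with 361. At the other end, Pcdh9 had 792659 UMIs, Pcdh7 218719, Pcdh15 161797 and Cdh11 111211.

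Cadherins are calcium-dependent adhesion proteins that span the membrane and bind cadherins of a neighbouring cell, mostly of the same or a related kind. Classical cadherins of type I, such as E-cadherin (Cdh1) and N-cadherin (Cdh2), and of type II, such as VE-cadherin (Cdh5) and Cdh11, anchor to actin through catenins at adherens junctions. Atypical members depart from this plan: Cdh13 is held by a lipid anchor and has no cytoplasmic tail, and Cdh23 with Pcdh15 builds the tip link of sensory hair cells. The non-clustered protocadherins fall into a delta-1 group, to which Pcdh7, Pcdh9 and Pcdh11x belong, and a delta-2 group, to which Pcdh10, Pcdh17 and Pcdh19 belong. In cortex, combinations of type II cadherins and protocadherins are known to mark layers and neuron types, and meningeal layers carry cadherins of their own.

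The study asked how fibroblast-derived Cxcl12, a chemokine, shapes the tissue around a photothrombotic (PT) cortical lesion, in which light-activated clotting closes the vessels of a patch of cortex. Nuclei were taken at 21 days post-injury (dpi) from wild-type mice and from Col1a2(creER); Cxcl12(flox) mice, in which a tamoxifen-inducible Cre under the Col1a2 promoter recombines Cxcl12 in fibroblasts. Each genotype was 1 library that pooled 1 female and 1 male mouse, with lesional and parenchymal nuclei tagged apart and mixed at 75% and 25%. The libraries are named as their titles label them, Ctrl for wild-type and cKO for Col1a2(creER); Cxcl12(flox). Mice of this strain were given tamoxifen on days 0 to 2, again on days 7 to 9 and last on days 14 to 16 after injury. The methods describe controls of such strains in general, among them Cre-negative or flox-heterozygous littermates given tamoxifen where relevant, but do not name those of these libraries. All mice carried the PT lesion, and the labels give no age or strain.

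Of 23489 barcodes, 21743 were kept. The lesion gave 8095 and 7933 nuclei in the libraries labelled Ctrl and cKO, with a median of 2962 and 2975 UMIs, and the parenchyma gave 2877 and 2838 nuclei with a median of 15915 and 16648. Nuclei with UMIs of both sexes made up 9.75% to 14.3% of each. The libraries shared 22 lesional barcodes and 1 parenchymal barcode. The targeted gene went against the labels: Cxcl12 stood at 106 UMIs per 1e6 UMIs (CPM) in lesional fibroblast-like nuclei of the library labelled Ctrl and at 215 in the other, a log2 ratio of 1.02 (95% counting interval 0.93 to 1.11). No source says whether these reads fall in the floxed part, so every direction between libraries below is a direction between labels.

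Levels are given as CPM, the UMIs of a gene scaled to a fixed total of UMIs of all genes in the same class, so they compare classes for 1 gene and not genes with each other. Intervals are exact Poisson intervals at 95% and cover counting error only. Classes were rebuilt from clusters from which all 122 cadherin superfamily genes had been left out, and carry the suffix "-like" because they rest on marker lists. The class called osteoblast lineage-like was led by Tnn, Postn, Dapk2 and Aspn and had 4 of its 8 markers raised, and the oligodendrocyte precursor-like class was led by Bcas1 and Enpp6, genes of precursors that are entering differentiation.

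Across 12 classes, 19 of the 29 genes had at least 50 UMIs in their highest class in each library. Of these, 5 were highest in oligodendrocyte precursor-like nuclei, 5 in inhibitory neuron-like nuclei, 2 each in excitatory neuron-like, oligodendrocyte-like and astrocyte-like nuclei, and 1 each in endothelial-like, myeloid-like and osteoblast lineage-like nuclei. A level at least 2 times that of the next class was seen for 5 genes, and for the same 5 in each library: Cdh5, Pcdh9, Cdh9, Cdh12 and Cdh7. The heat map of the 19 genes by class shows these as rows with 1 bright square, against rows such as Cdh10 and Pcdh10 that spread over several classes.

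**Figure D1:**
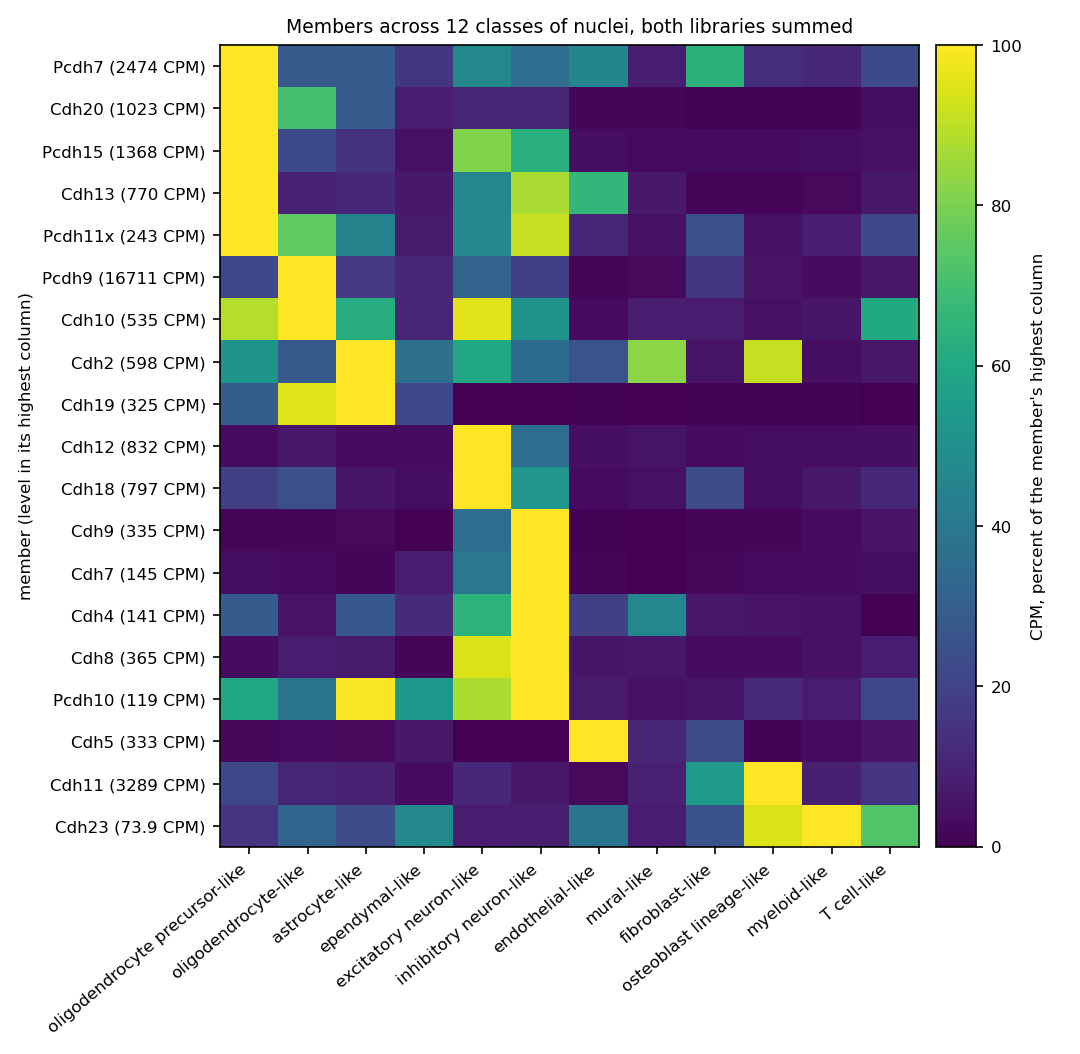
Heat map of the 19 genes with enough UMIs (rows) in 12 classes of nuclei (columns), both libraries summed. Colour is the CPM of a class as a percentage of that gene's highest class, whose CPM stands beside the name. Cdh5 reached 333 CPM in endothelial-like nuclei and Cdh11 reached 3289 CPM in osteoblast lineage-like nuclei.

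Among the classical type I cadherins, Cdh2, the N-cadherin of neural and mesenchymal cells, had no clear peak. In astrocyte-like nuclei it stood at 482 CPM (455 to 511) in the library labelled Ctrl and at 701 (670 to 733) in the library labelled cKO. In osteoblast lineage-like nuclei the order was the other way round, with 588 CPM (540 to 639) and 379 (305 to 464). Astrocyte-like nuclei therefore ranked below osteoblast lineage-like nuclei in 1 library, at a ratio of 0.820, and above them in the other, at 1.85. Cdh4, the R-cadherin of retina and brain, was highest in inhibitory neuron-like nuclei with 140 CPM and 142, against 90.4 and 92.4 in excitatory neuron-like nuclei.

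Cdh1, the E-cadherin of epithelia and of the arachnoid barrier, reached 37.9 CPM in fibroblast-like nuclei, with 1110 UMIs over both libraries. The value in T cell-like nuclei was 40.9 CPM, on 16 UMIs in all, too few to rank. All other classes lay at 7.45 CPM or below, with no Cdh1 UMI in mural-like and ependymal-like nuclei. Thinned to 1000 UMIs a nucleus, 3.50% and 2.96% of fibroblast-like nuclei held a Cdh1 UMI in the libraries labelled Ctrl and cKO, against 0.173% and 0.759% of myeloid-like nuclei, whose median depth before thinning was 2157 and 2356 UMIs.

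Cdh5, the VE-cadherin of endothelial junctions, stood at 326 CPM (262 to 401) and 345 CPM (265 to 442) in endothelial-like nuclei. The next class was fibroblast-like, with 89.0 CPM (84.2 to 94.0) and 67.1 CPM (63.0 to 71.4), and the ratio over both libraries was 4.28. At 0.641 CPM, excitatory neuron-like nuclei were lowest. With both regions summed, the fibroblast-like level was therefore above the level in neurons, which should lack the gene. In the lesional nuclei compared below, Cdh5 stood at 2.29 and 1.24 CPM in excitatory and at 4.83 and 4.17 in inhibitory neuron-like nuclei. These levels rest on 14 and 3 UMIs and on 7 and 5 UMIs. At 1000 UMIs a nucleus, 8.54% and 6.30% of fibroblast-like nuclei held a Cdh5 UMI, 31.7% and 29.8% of endothelial-like nuclei did, and 0 of 2806 and 0 of 2417 excitatory neuron-like nuclei did, which allows up to 0.131% and 0.153% (exact binomial bound). The median depth was 3076 and 3110 UMIs in fibroblast-like and 16628 and 17412 in excitatory neuron-like nuclei.

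Cdh11, a type II cadherin of mesenchymal and bone-forming cells, was highest in osteoblast lineage-like nuclei with 3360 CPM (3245 to 3478) and 3009 CPM (2795 to 3236). Fibroblast-like nuclei followed with 1930 CPM (1907 to 1953) and 1617 CPM (1596 to 1638), a ratio of 1.86, and endothelial-like nuclei were lowest with 79.5 CPM. At 1000 UMIs a nucleus, Cdh11 was seen in 64.8% and 61.7% of fibroblast-like nuclei and in 13.7% and 11.3% of myeloid-like nuclei. The order was the same in both libraries.

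Of the other type II cadherins with enough UMIs, Cdh7, Cdh8, Cdh9, Cdh12 and Cdh18 were highest in a neuron class. Cdh12 stood at 862 CPM (854 to 871) and 797 CPM (789 to 806) in excitatory neuron-like nuclei, 2.79 times the 299 CPM of inhibitory neuron-like nuclei. Cdh9 was the reverse, with 319 CPM (306 to 332) and 350 CPM (337 to 363) in inhibitory neuron-like nuclei against 112 and 130 in excitatory neuron-like nuclei, also a ratio of 2.79. Cdh7 was likewise highest in inhibitory neuron-like nuclei, at 149 CPM and 142, which was 2.49 times the excitatory level. These type II cadherins thus peaked in opposite neuron classes, while Cdh8 was nearly level between both, at 365 CPM in inhibitory and 346 CPM in excitatory neuron-like nuclei.

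Cdh18, a type II cadherin of the central nervous system, was highest in excitatory neuron-like nuclei with 820 CPM (812 to 828) and 772 CPM (764 to 780), 1.92 times the inhibitory level. Among glia, Cdh20 reached 1373 CPM and 769 CPM in oligodendrocyte precursor-like nuclei, against 787 and 665 in oligodendrocyte-like nuclei. Cdh19, known from Schwann cells and glia, was nearly level between astrocyte-like nuclei (325 CPM) and oligodendrocyte-like nuclei (309 CPM), with a ratio of 1.05. Cdh10 was likewise almost level between oligodendrocyte-like nuclei (535 CPM) and excitatory neuron-like nuclei (511 CPM). Cdh20 is the gene of these whose order stayed but whose ratio moved most between libraries, from 1.75 to 1.16.

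Of the atypical cadherins, Cdh13, the T-cadherin that binds adiponectin, stood at 832 CPM (758 to 911) and 725 CPM (667 to 788) in oligodendrocyte precursor-like nuclei. Inhibitory neuron-like nuclei were close behind with 661 and 681 CPM, a ratio of 1.15. In endothelial-like nuclei Cdh13 stood at 377 CPM in the library labelled Ctrl and at 712 in the library labelled cKO. Cdh23 was low in all classes, with 78.6 and 70.7 CPM in myeloid-like nuclei and 70.1 CPM over both libraries in osteoblast lineage-like nuclei. Neither gene had a class that stood apart.

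Among the protocadherins, Pcdh9 had the clearest class. It stood at 16699 CPM (16403 to 17000) and 16721 CPM (16454 to 16992) in oligodendrocyte-like nuclei, 3.15 times the 5303 CPM of excitatory neuron-like nuclei. In endothelial-like nuclei, the lowest class, it stood at 302 CPM. Pcdh7 was highest in oligodendrocyte precursor-like nuclei, at 2787 CPM and 2247, and next in fibroblast-like nuclei, at 1607 and 1577, a ratio of 1.55. Pcdh15 followed with 1650 CPM and 1164 in oligodendrocyte precursor-like nuclei against 1062 and 1159 in excitatory neuron-like nuclei, so the classes were level in the library labelled cKO. Pcdh11x, at 243 CPM in oligodendrocyte precursor-like and 221 CPM in inhibitory neuron-like nuclei, and Pcdh10, at 119 CPM in both inhibitory neuron-like and astrocyte-like nuclei, were also without a leading class.

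The remaining 10 genes had fewer than 50 UMIs in their highest class in a library. Their highest values often lay in the vascular classes, which held few nuclei. Pcdh17 was the firmest, with 384 CPM on 105 UMIs and 239 CPM on 43 UMIs in endothelial-like nuclei. Pcdh19 stood at 256 CPM in mural-like nuclei on 43 UMIs in all, Cdh6 at 161 CPM there on 27 UMIs, Pcdh18 at 95.3 CPM there on 16 UMIs and Pcdh1 at 92.7 CPM in endothelial-like nuclei on 42 UMIs. Cdh22 was highest in ependymal-like nuclei on 14 UMIs, and Cdh24 in oligodendrocyte precursor-like nuclei on 14 UMIs. Over both libraries, Pcdh8 and Pcdh20 stayed at or below 5.96 CPM in every class.

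Within lesional fibroblast-like nuclei, 4 states were separated. A late inner-like state held 2701 nuclei and a leptomeningeal-like state 882, and the other states, named by a leading gene because their markers did not decide, were led by Slc47a1 with 2087 nuclei and by Ranbp3l with 2533. Ranbp3l was itself on the leptomeningeal marker list, and Slc47a1 on the list for dura or dural border. The state called leptomeningeal-like therefore need not hold all leptomeningeal fibroblasts. Of the 29 genes, 12 had enough UMIs in their highest state in each library. With both libraries summed, 8 of these were highest in the late inner-like state, 3 in the Ranbp3l-led state and 1 in the Slc47a1-led state. Not all of the 8 led in each library. Pcdh11x was below the Slc47a1-led state in both, at ratios of 0.947 and 0.966. Cdh6, Pcdh15 and Pcdh19 changed order with their next state between libraries. A ratio of 2 or more to the next state was seen for Cdh18, Cdh2 and Cdh1, and in each library for Cdh18 and Cdh2.

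Cdh18 separated the late inner-like state most. In the library labelled Ctrl it stood at 371 CPM (352 to 390) there, against 30.5 in the leptomeningeal-like, 37.4 in the Slc47a1-led and 37.8 in the Ranbp3l-led state. In the library labelled cKO it stood at 500 CPM (482 to 519), against 73.0, 84.1 and 32.9 in the same order. The ratio to the next state was 9.91 in the first and 5.95 in the second library, so a gene that was neuronal among classes was also concentrated in 1 fibroblast state. At a finer resolution the nuclei led by Eln and Matn4 reached 575 and 701 CPM of Cdh18.

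Cdh2 was low in fibroblast-like nuclei and also had its highest level in the late inner-like state. It stood at 66.5 CPM (58.9 to 74.8) and 69.0 CPM (62.4 to 76.1) in the late inner-like state, and between 15.7 and 26.4 CPM in the other 3 states of both libraries, a ratio of 2.88. Cdh11 was also highest there, with 2983 CPM and 2355, but the Slc47a1-led state was close at 2299 and 1846, a ratio of 1.23. The leptomeningeal-like state, with 928 and 1010 CPM, and the Ranbp3l-led state, with 647 and 640 CPM, held less Cdh11. Cdh6, a type II cadherin of kidney and neural tube, was low in all states, with 17.6 and 15.9 CPM in the late inner-like state.

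Cdh1 ran the other way. It stood at 93.0 CPM (83.5 to 103) and 72.7 CPM (64.6 to 81.7) in the Ranbp3l-led state and at 34.5 CPM and 44.3 in the Slc47a1-led state, a ratio of 2.70 in the library labelled Ctrl and 1.64 in the other. In the late inner-like state it stood at 2.17 and 2.79 CPM, and in the leptomeningeal-like state it was seen with 4 UMIs in the library labelled Ctrl and none in the other, where the upper limit was 2.32 CPM. At the finer resolution Cdh1 was gathered in a subcluster led by Col25a1 and Dpp4, with 203 CPM (181 to 228) and 244 CPM (215 to 276). Cdh5 shared part of this order: it was highest in the Ranbp3l-led state, at 143 and 117 CPM, and lowest in the late inner-like state, at 17.3 and 16.6 CPM, with a ratio of 1.29 to the next state.

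Of the protocadherins, Pcdh9 was highest in the Ranbp3l-led state, with 6277 CPM in the library labelled Ctrl and 4590 in the other, against 3262 and 2505 in the Slc47a1-led state. The late inner-like and leptomeningeal-like states lay between 662 and 948 CPM of Pcdh9. Pcdh7 was highest in the Slc47a1-led state with 2252 and 2435 CPM, close to the late inner-like state with 1917 and 1844, a ratio of 1.24. In the leptomeningeal-like state Pcdh7 was lowest, with 275 and 376 CPM. Pcdh11x had 2 high states, the late inner-like with 70.1 and 100.2 CPM and the Slc47a1-led with 74.0 and 104 CPM, and 2 low ones, between 5.77 and 12.3 CPM.

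**Figure D2:**
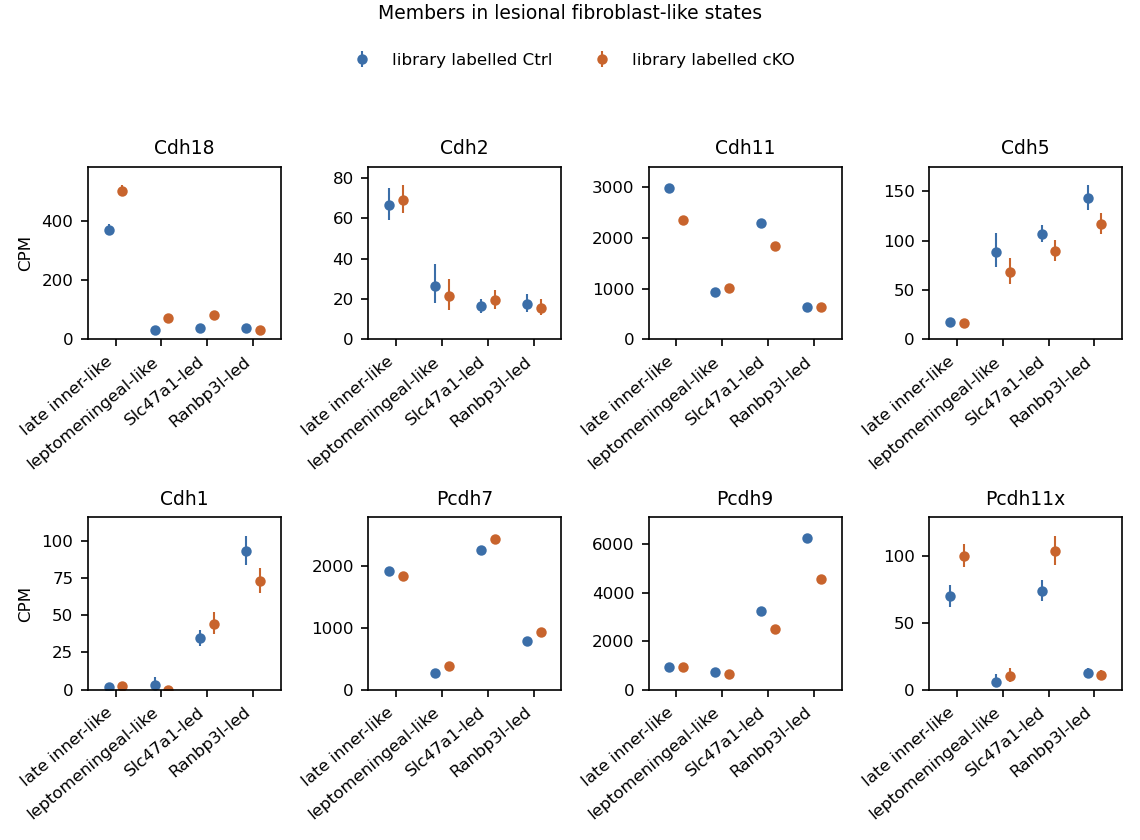
CPM of 8 genes in 4 states of lesional fibroblast-like nuclei, by library, on axes that start at 0. Points are CPM and bars are 95% Poisson intervals, which cover counting error only. Cdh18 and Cdh2 were highest in the late inner-like state, and Cdh1, Cdh5 and Pcdh9 were highest in the Ranbp3l-led state.

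Among 9 neuron subtypes, 20 genes had enough UMIs in their highest subtype in each library. Of these, 5 were highest in Pvalb and Sst-like interneurons, 4 in middle layer-like, 3 each in near-projecting-like and layer 6b-like, 2 in layer 6-like, and 1 each in layer 5 projection-like, Adarb2-like and striatal projection-like neurons. Cdh24 alone had a ratio of 2 or more to the next subtype, with 48.4 and 39.3 CPM in layer 6b-like neurons against 15.8 and 20.1 CPM in layer 6-like neurons. That ratio was 3.06 in the library labelled Ctrl and 1.95 in the other. The other 19 genes had a further subtype at more than 0.5 of their highest level.

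Cdh18 was high in deep-layer neurons. It stood at 4669 CPM (4578 to 4762) and 4387 CPM (4285 to 4491) in layer 6b-like neurons, at 2531 and 3111 CPM in near-projecting-like neurons and at 2625 and 2404 CPM in layer 6-like neurons. The other 6 subtypes lay between 110 CPM, in Adarb2-like neurons, and 587 CPM, in striatal projection-like neurons. Near-projecting-like and layer 6-like neurons changed places between libraries. Cdh2 was also highest in the deep layers, with 629 and 575 CPM in layer 6b-like and 584 and 605 CPM in layer 6-like neurons, which the libraries ranked in opposite orders.

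In middle layer-like neurons, Cdh12 stood at 1431 and 1312 CPM against 840 and 754 in upper layer-like neurons, a ratio of 1.72, and was lowest in layer 6b-like neurons with 144 CPM. Pcdh15 followed with 1655 and 1601 CPM, against 1103 and 1116 in Pvalb and Sst-like interneurons, a ratio of 1.47. Cdh6 and Cdh10 were also highest in middle layer-like neurons, at 156 and 670 CPM over both libraries, but the next subtype was close, at 145 and 652 CPM. Cdh22 was highest in layer 5 projection-like neurons with 87.3 and 73.4 CPM, 1.35 times upper layer-like neurons.

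Near-projecting-like neurons had the highest level of Pcdh17, with 329 and 377 CPM and a ratio of 1.45 to striatal projection-like neurons, and of Cdh11, with 927 and 935 CPM and a ratio of 1.21 to layer 6b-like neurons. Pcdh7 was level between near-projecting-like and layer 6-like neurons, at 1555 and 1510 CPM. Pcdh9 was highest in layer 6-like neurons with 9017 and 8680 CPM, followed by layer 6b-like neurons with 8338 and 8402, a ratio of 1.06. Pcdh10 was the most even gene, with 127 CPM in both layer 6-like and Adarb2-like neurons and a lowest value of 60.3 CPM in layer 6b-like neurons.

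Pvalb and Sst-like interneurons had 244 and 216 CPM of Cdh7, 1.99 times upper layer-like neurons, and 452 and 522 CPM of Cdh9, 1.68 times striatal projection-like neurons. Pcdh11x, Cdh4 and Cdh13 were also highest there, at 316, 184 and 837 CPM over both libraries, with ratios of 1.42, 1.38 and 1.25. Adarb2-like interneurons had the highest Cdh20, with 374 and 294 CPM, 1.32 times layer 5 projection-like neurons, and layer 6b-like neurons the lowest, with 2.95 CPM. Striatal projection-like neurons had the highest Cdh8, with 756 and 802 CPM, against 537 and 682 in layer 5 projection-like neurons. Cdh8 therefore split the inhibitory class, since Pvalb and Sst-like interneurons lay at 229 CPM and Adarb2-like interneurons at 171 CPM.

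**Figure D3:**
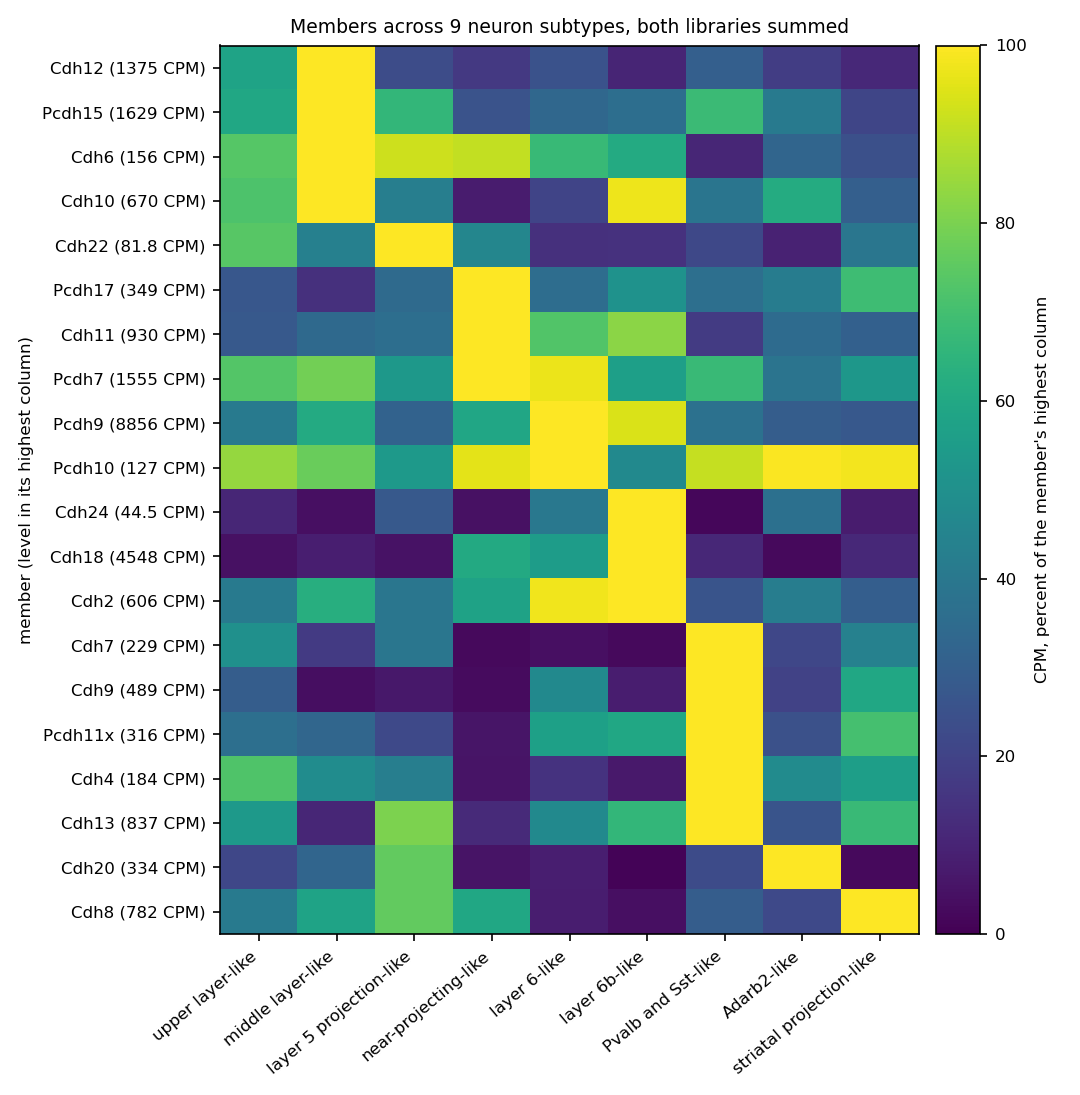
Heat map of the 20 genes with enough UMIs (rows) in 9 neuron subtypes (columns), both libraries summed. Colour is the CPM of a subtype as a percentage of that gene's highest subtype, whose CPM stands beside the name. Cdh18 was high in layer 6b-like, near-projecting-like and layer 6-like neurons, and Cdh7 and Cdh9 in Pvalb and Sst-like interneurons.

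Between the libraries, lesional nuclei of 5 classes were compared by the log2 ratio of CPM, the library labelled cKO over the library labelled Ctrl. With 1 library per genotype there is no replicate check and no test, and intervals cover counting error only. Past 2-fold, with at least 50 UMIs over both libraries, stood 0 of 27 genes in fibroblast-like nuclei, where 1.02% of all genes did (0.644% higher and 0.378% lower). In myeloid-like nuclei it was 0 of 22 against 0.964% of all genes (0.430% higher and 0.535% lower), and in excitatory neuron-like nuclei 0 of 22 against 1.11% (0.503% and 0.606%). In astrocyte-like nuclei 1 of 21 was past 2-fold, and lower, against 1.63% of all genes (0.520% higher and 1.11% lower). In inhibitory neuron-like nuclei 2 of 20 were, 1 higher and 1 lower, against 6.39% of all genes (3.76% higher and 2.64% lower). The median log2 ratio of the genes was 0.16 in fibroblast-like, -0.02 in myeloid-like, -0.14 in astrocyte-like, -0.06 in excitatory and -0.07 in inhibitory neuron-like nuclei, where all genes tested had a median between -0.11 and 0.00.

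In fibroblast-like nuclei, Cdh18 stood at 134 CPM in the library labelled Ctrl and at 233 in the library labelled cKO, a log2 ratio of 0.80 (0.71 to 0.88). It was higher in the nuclei of both sexes, by 1.09 for the female and 0.68 for the male mice. The direction was shared by 3 of the 4 states: the ratio was 0.43 (0.34 to 0.52) in the late inner-like, 1.25 in the leptomeningeal-like, 1.17 in the Slc47a1-led and -0.20 (-0.55 to 0.16) in the Ranbp3l-led state. The late inner-like state itself, in which Cdh18 was highest, made up 29.4% of lesional fibroblast-like nuclei in the library labelled Ctrl and 36.5% in the other. The Slc47a1-led state made up 1241 of 4140 and 846 of 4063 nuclei, the leptomeningeal-like state 9.40% and 12.1% of them and the Ranbp3l-led state 31.3% and 30.5%, and the part of these shares in the ratios of the whole class was not tested.

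Cdh11 stood at 1949 CPM and 1630 CPM, a log2 ratio of -0.26 (-0.28 to -0.23), with values of -0.20 for the female and -0.28 for the male mice. By state it was -0.34 in the late inner-like and -0.32 in the Slc47a1-led state, at -0.02 in the Ranbp3l-led state and, the other way, at 0.12 (0.01 to 0.23) in the leptomeningeal-like state. Cdh5 stood at 88.9 and 66.0 CPM, -0.43 (-0.55 to -0.31), Cdh1 at 37.7 and 30.8 CPM, -0.29 (-0.47 to -0.11), and Cdh2 at 32.2 and 38.1 CPM, 0.24 (0.06 to 0.43). For Cdh2 the sexes pointed in opposite directions, at 0.82 for the female and -0.25 for the male mice. Pcdh9 stood at 3161 and 2255 CPM, -0.49 (-0.51 to -0.47), with -0.45 in the Ranbp3l-led, -0.38 in the Slc47a1-led, -0.12 in the leptomeningeal-like and -0.01 in the late inner-like state. Among the lower genes, Cdh10 stood at 33.3 and 52.4 CPM and Cdh23 at 14.5 and 22.7 CPM, both with a log2 ratio of 0.65. The summed level of 9 myeloid markers in the same nuclei was 76.5 CPM in the library labelled Ctrl and 110 in the other, with 8 of 9 higher there, and its part in these ratios was not tested.

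In lesional astrocyte-like nuclei the gene past 2-fold was Cdh20. It stood at 370 CPM on 842 UMIs in the library labelled Ctrl and at 170 CPM on 426 UMIs in the library labelled cKO, a log2 ratio of -1.12 (-1.30 to -0.95). Both sexes showed this direction, at -0.94 for the female and -1.07 for the male mice. In parenchymal astrocyte-like nuclei the levels were 588 and 665 CPM, a ratio of 0.18, so the lower value was that of lesional nuclei. With nuclei weighted alike the ratio fell just short of 2-fold, and at Leiden resolution 0.25 it was -0.88. Cdh2 in lesional astrocyte-like nuclei stood at 474 and 717 CPM, 0.60 (0.49 to 0.71), higher in both sexes, and Cdh11 at 390 and 240 CPM, -0.70 (-0.85 to -0.55). The 8 fibroblast markers summed to 942 CPM in the library labelled Ctrl and to 376 in the other within these nuclei, and the 9 oligodendrocyte precursor markers to 2362 and 1784 CPM, and the part of either in these ratios was not tested.

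In lesional inhibitory neuron-like nuclei, 2 genes were past 2-fold. Cdh8 stood at 267 and 686 CPM, a log2 ratio of 1.36 (1.18 to 1.54), and Cdh4 at 185 and 88.4 CPM, -1.06 (-1.40 to -0.73). For Cdh8 the female mice gave 1.65 and the male mice -0.60, and the parenchyma gave 384 and 315 CPM. Subtype shares also differed between the libraries. Striatal projection-like neurons, which had the highest Cdh8, were 9 of 112 lesional inhibitory neuron-like nuclei (8.04%) in the library labelled Ctrl. In the other they were 48 of 115 (41.7%), 42 of the 48 from the female mouse. Within Pvalb and Sst-like interneurons Cdh8 stood at 255 and 271 CPM, a log2 ratio of 0.09, and Cdh4 had a ratio of -0.61. The part of subtypes in the ratios of the whole class was not tested. With trimmed-mean scaling in place of total UMIs, Cdh8 alone was past 2-fold, since Cdh4 stood at -0.94.

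In myeloid-like and excitatory neuron-like nuclei no gene was past 2-fold. Cdh2 in myeloid-like nuclei stood at 32.3 and 18.5 CPM, -0.80 (-1.15 to -0.46). Cdh18 in excitatory neuron-like nuclei stood at 319 and 416 CPM, 0.39 (0.27 to 0.50), with 1.23 for the female and -0.40 for the male mice, so the sexes were opposed. The layer 6-like, layer 6b-like and near-projecting-like neurons, in which Cdh18 was high, gave 0 of the lesional nuclei compared here. Those of the lesion lay in a cluster led by Hs3st4 that was left out of the comparisons. Before it was left out, the lesion held 78 and 55 layer 6-like, 10 and 1 layer 6b-like and 16 and 12 near-projecting-like nuclei. None of the partner genes was past 2-fold either. Of 12 catenins and adherens junction genes and 16 other superfamily genes, such as the Fat, Dchs, Celsr and Clstn families, none of those tested passed it in any of the 5 classes. Those tested numbered 12 and 11 in fibroblast-like, 12 and 6 in myeloid-like and 11 and 7 in astrocyte-like nuclei. They numbered 10 and 9 in excitatory and 9 and 9 in inhibitory neuron-like nuclei. Of all genes, 1.02%, 0.964%, 1.63%, 1.11% and 6.39% passed 2-fold in these classes, in that order. Smaller ratios were seen, such as those of Clstn2 at -0.71 (-0.81 to -0.61) in fibroblast-like and -0.78 (-0.92 to -0.64) in inhibitory neuron-like nuclei.

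**Figure D4:**
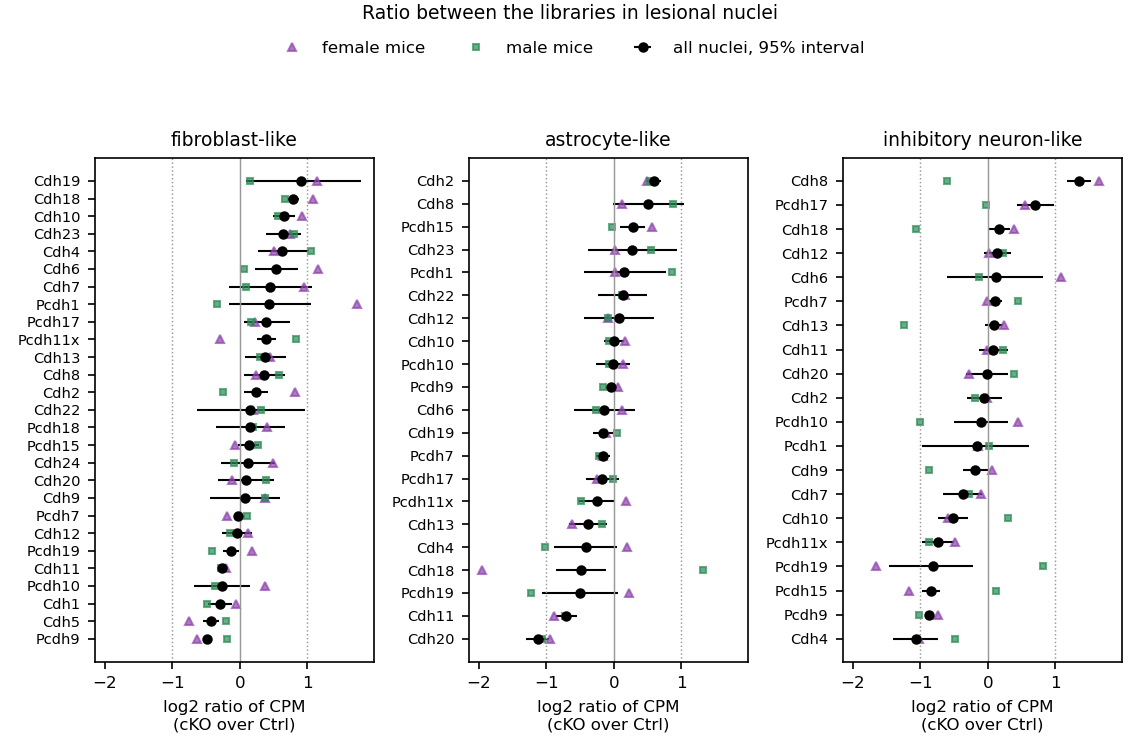
Log2 ratio of CPM between the libraries (library labelled cKO over Ctrl) for genes tested in lesional fibroblast-like, astrocyte-like and inhibitory neuron-like nuclei. Circles with bars are all nuclei with 95% counting intervals, triangles are the female and squares the male mice, and dotted lines mark 2-fold. Cdh20 in astrocyte-like nuclei lay at -1.12, and Cdh8 and Cdh4 in inhibitory neuron-like nuclei lay at 1.36 and -1.06.

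Lesional and parenchymal nuclei of the same class were then compared with edgeR's quasi-likelihood test on 4 sums, 2 regions in each of 2 libraries, with library as a block and Benjamini-Hochberg adjustment over all genes tested. The sums of a library come from the same mice. With only 4 sums, the spread used for a gene was borrowed largely from all genes. A small p-value therefore does not measure how closely the 2 libraries agreed for that gene. Excitatory neuron-like nuclei of the lesion had 14 of 27 genes past an adjusted p of 0.05, 9 higher and 5 lower, where 30.9% of all genes were called, 13.9% higher and 17.0% lower. Of 13 type II cadherins tested, 6 rose and 1 fell, of 5 delta-1 protocadherins 3 rose, and of 4 delta-2 protocadherins 2 fell. The median log2 change of the genes was 0.19, against -0.04 for all genes tested. Of the nuclei tested, upper layer-like neurons were 30.5% and 23.4% in the lesion and 35.7% and 38.1% in the parenchyma, and neurons of no named subtype were 126 of 406 and 62 of 184 nuclei against 364 of 1824 and 360 of 1771. Layer 6-like, layer 6b-like and near-projecting-like neurons, most of which lay in the cluster led by Hs3st4 that was left out of the comparisons, gave 0 of the lesional nuclei tested. The part of subtypes in these changes was not tested over the whole class. The counts depended on the method, as did those over all genes: DESeq2 called 6 of the 27 genes and 1796 of all genes against 5410 by edgeR, and sums thinned to 1000 UMIs a nucleus gave 3 and 420.

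Cdh12 rose in the lesion, from 921 to 1407 CPM in the library labelled Ctrl and from 886 to 1176 in the other, a log2 change of 0.60 (SE 0.08, edgeR adjusted p = 6.7e-12). Pcdh9 rose by 0.55, from 4243 to 6212 CPM and from 4564 to 5891 CPM. Pcdh7 rose by 0.49, from 1031 to 1428 CPM and from 1136 to 1429 CPM. In both libraries these 3 genes were higher in the lesion than in either parenchyma, but they were picked by a test on the same sums. The share of all genes with this order was not computed.

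Cdh18 rose by 0.37 (SE 0.09, edgeR adjusted p = 0.00015), from 288 to 319 CPM in the library labelled Ctrl and from 308 to 416 in the other. Smaller rises were those of Cdh10 at 0.31, Cdh6 at 0.30, Pcdh11x at 0.27 and Cdh11 at 0.25, the latter from 290 to 332 CPM and from 286 to 315 CPM. With nuclei thinned to 1000 UMIs none of these 5 was called, and the value was 0.07 for Cdh18, 0.04 for Cdh6 and -0.11 for Pcdh11x. Cdh5 rose by 2.06 (SE 0.62, edgeR adjusted p = 0.0051) on 14 and 3 lesional UMIs and 14 and 19 parenchymal UMIs. Without barcodes of both sexes, Cdh11 and Cdh5 were no longer called. The 8 fibroblast markers summed to 153 and 102 CPM in the lesional and to 34.2 and 33.3 CPM in the parenchymal excitatory neuron-like nuclei, 8 of 8 higher in both libraries, and their part in these changes was not tested.

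The largest fall among the 14 was that of Cdh13, from 337 to 204 CPM in the library labelled Ctrl and from 388 to 158 in the other, a log2 change of -0.89 (SE 0.09, edgeR adjusted p = 7.6e-21). Pcdh17 and Cdh4 fell by 0.38 on the log2 scale, Pcdh10 by 0.33 and Cdh9 by 0.31. For Pcdh17 the libraries differed in size, at 84.3 to 73.9 CPM and 90.7 to 48.7 CPM. Cdh2 stood at -0.06 with an adjusted p of 0.67 by edgeR.

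Within middle layer-like neurons, the subtype with the most lesional nuclei (193), 10 genes were called where 10.2% of all genes were. Cdh12 at 0.49, Pcdh9 at 0.52, Pcdh7 at 0.33, Cdh10 at 0.36, Cdh13 at -0.65 and Cdh4 at -1.04 kept their direction and their call. Cdh6 and Cdh9 turned, to -0.49 and 0.89. For Cdh9 the libraries were opposed, at 12.9 to 34.1 CPM from parenchyma to lesion in the library labelled Ctrl and 19.1 to 16.4 CPM in the other. Pcdh15 and Cdh2 were called there and not in the whole class, at 0.31 and -0.37. Cdh18 stood at 0.31 with an edgeR adjusted p of 0.099 in that subtype, and was no longer called.

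Astrocyte-like nuclei of the lesion had 8 of 22 genes called, 2 higher and 6 lower, where 18.7% of all genes were called, 9.99% higher and 8.72% lower. The parenchyma held 37 and 45 astrocyte-like nuclei, so the parenchymal levels rest on few nuclei. Cdh10 fell from 997 to 286 CPM in the library labelled Ctrl and from 756 to 287 in the other, a log2 change of -1.74 (SE 0.19, edgeR adjusted p = 9e-07). Pcdh7 fell by 1.19 on the log2 scale, from 1367 to 702 CPM and from 1387 to 628 CPM. Pcdh9 fell by 0.99, from 4324 to 2650 CPM and from 5167 to 2579 CPM. In these genes the libraries did not overlap between regions, but the genes were picked by a test on the same sums. The share of all genes without such overlap was not computed.

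Cdh20 fell by 1.47 (edgeR adjusted p = 0.00012), from 588 to 370 CPM and from 665 to 170 CPM, Cdh4 by 1.83 and Pcdh10 by 1.35. Pcdh15 rose by 2.04 (SE 0.30, edgeR adjusted p = 3.5e-05), from 38.1 to 194 CPM and from 56.2 to 236 CPM. Cdh22 rose by 2.39 (SE 0.60, edgeR adjusted p = 0.007), from 5.45 to 52.8 CPM and from 13.0 to 57.8 CPM, on 1 and 3 parenchymal UMIs. Cdh22 was no longer called with DESeq2, at 2.47, and with thinned nuclei neither Cdh22, at 2.34, nor Cdh4, at -1.20, was. Cdh2 did not pass the test, at -0.07 with an adjusted p of 0.88 by edgeR, nor did Cdh11 at 0.59 (0.13) and Cdh18 at 1.47 (0.061). The 9 oligodendrocyte precursor markers summed to 2362 and 1784 CPM in lesional and to 169 and 169 CPM in parenchymal astrocyte-like nuclei, 7 of 9 higher in both libraries, and the 8 astrocyte markers to 5380 and 6607 against 13330 and 12880 CPM. The 8 fibroblast markers summed to 942 and 376 CPM in the lesion against 169 and 112 CPM, 8 of 8 higher in both libraries, and the 9 endothelial markers to 160 and 294 against 5.45 and 13.0 CPM. The part of any of these lists in the changes was not tested.

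The change from parenchyma to lesion was compared between astrocyte-like and excitatory neuron-like nuclei with an interaction term in edgeR, a test added after the data were seen. It was past an adjusted p of 0.05 for 9 genes, where 10.1% of all genes tested were. Pcdh7, Pcdh9 and Cdh10 rose in excitatory neuron-like and fell in astrocyte-like nuclei, with differences of -1.60 (edgeR adjusted p = 8.1e-12), -1.46 (5.4e-10) and -1.96 (1.9e-14). The others were Cdh20, Cdh4 and Pcdh10, with a more negative change in astrocyte-like nuclei, and Cdh22, Cdh13 and Pcdh15, with a more positive one. Thinned to 1000 UMIs a nucleus, 5 genes of the set were past the threshold. They were not matched to the 9 above, and the share of all genes called there was not computed.

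In inhibitory neuron-like nuclei, 0 of 27 genes were called by edgeR or by DESeq2, where 4.69% of all genes were called by edgeR (1.14% higher and 3.55% lower). Of the 27, 3 had an unadjusted edgeR p under 0.05, but the share of all genes past that unadjusted threshold was not computed. Cdh8 stood at 384 to 267 CPM from parenchyma to lesion in the library labelled Ctrl and at 315 to 686 in the other, so the libraries pointed in opposite directions. Cdh11 was higher in the lesion in both libraries, at 222 to 260 CPM and 199 to 275 CPM, with an adjusted p of 0.30 by edgeR.

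**Figure D5:**
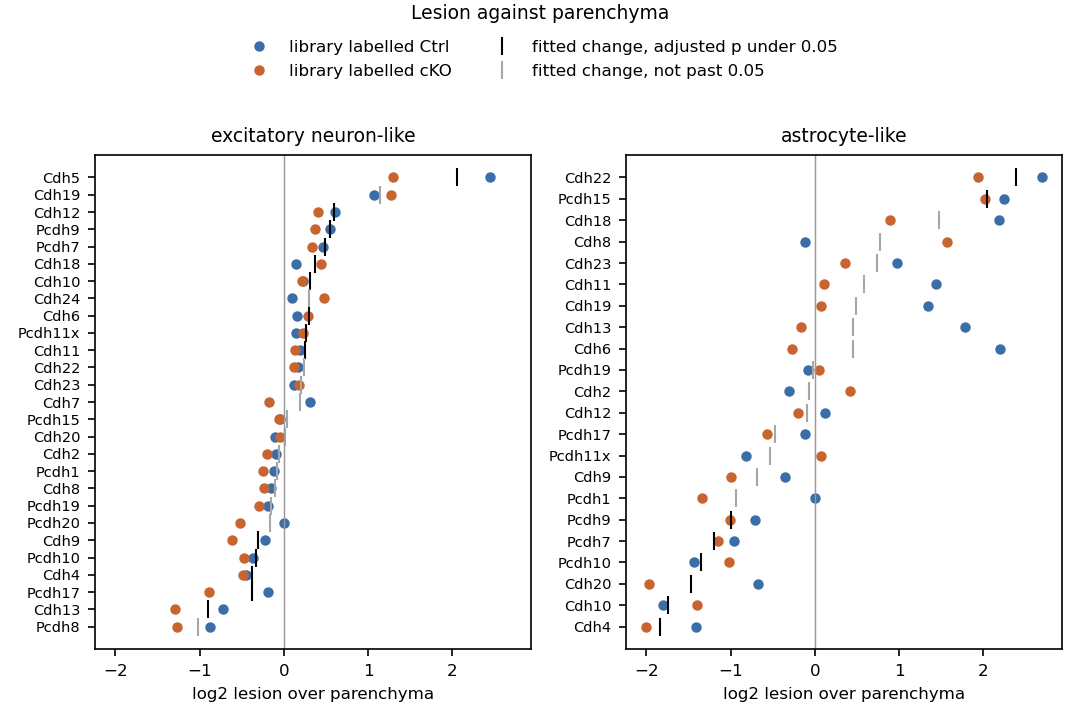
Log2 change from parenchyma to lesion for each gene tested in excitatory neuron-like (left) and astrocyte-like nuclei (right). Circles are the libraries and vertical ticks the fitted change, black where the edgeR adjusted p was under 0.05. Cdh12, Pcdh9 and Pcdh7 lay to the right of 0 in excitatory neuron-like nuclei, and Pcdh9, Pcdh7 and Cdh10 to the left in astrocyte-like nuclei.

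The genes that work beside the cadherins were read in the same fits. Of 12 catenins and adherens junction genes, 4 rose and 2 fell in excitatory neuron-like nuclei, where 13.9% of all genes rose and 17.0% fell. In inhibitory neuron-like nuclei 1 fell, against 1.14% of all genes that rose and 3.55% that fell, and in astrocyte-like nuclei 2 rose and 2 fell, against 9.99% and 8.72%. Ctnna3, the alpha-T-catenin that links cadherins to actin, fell most in neurons, from 370 to 71.5 CPM and from 347 to 71.9 CPM in excitatory neuron-like nuclei, a log2 change of -2.24 (edgeR adjusted p = 3.7e-104), and by 2.30 in inhibitory neuron-like nuclei (edgeR adjusted p = 0.00096). In astrocyte-like nuclei it rose by 2.93, from 5.45 to 174 CPM and from 38.9 to 217 CPM, on 1 and 9 parenchymal UMIs. Ctnnd2, the delta-catenin of neurons, rose by 0.32 in excitatory neuron-like nuclei and fell by 1.16 in astrocyte-like nuclei.

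In excitatory neuron-like nuclei Ctnnd1, the p120-catenin, rose by 0.40 and Ctnna2, the alpha-N-catenin, by 0.24, while Nectin3 rose by 0.32 and Nectin1, its adhesion partner, fell by 0.36. Of 14 other superfamily genes tested there, Clstn1 and Clstn2, calsyntenins of synapses, rose by 0.32 and 0.35, and Dchs1 and Dsg2 fell by 1.03 and 0.97. In astrocyte-like nuclei, Afdn rose by 0.82, Vcl fell by 1.07, Clstn2 rose by 1.88 and Fat3 fell by 0.94. With DESeq2, 5 of these partner genes were called in excitatory neuron-like nuclei against 10 with edgeR, where 1796 and 5410 of all genes were called.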

How the data were processed

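Single-nucleus RNA-seq was made from lesional and parenchymal brain nuclei of both genotypes at 21 dpi. The authors aligned reads and counted UMIs with Cell Ranger 9.0.0 on GRCm39, per the submitters' processing notes and methods, and deposited raw counts per gene and barcode, split by library and region. The 12 multiplexing tag features were left out. UMIs are counts of molecules, and introns add to nuclear counts, so long genes such as many cadherins gain UMIs.

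Barcodes outside the central range (2.5% removed at each end) or above 8.75% mitochondrial UMIs were removed, leaving 758 to 36243 UMIs and 585 to 6418 genes. Nuclei were clustered with scanpy 1.11.5 (3000 variable genes, 30 components, 20 neighbours, Leiden resolution 0.5, 0.3 for fibroblast-like nuclei). A class needed at least 3 markers with a log2 fold of 1 or more. These naming thresholds were set after the clusters were seen. Nuclei with UMIs of both sexes were kept, and clusters with over 25% of them stayed unnamed. Scrublet called 0.264% and 0.149% of nuclei, so it had not worked as a doublet caller, and removing the top 10% by its score was an alternative. A cluster of excitatory neuron-like nuclei led by Hs3st4, whose leading genes held the B cell marker Ighm, entered the levels but not the comparisons of libraries and regions.

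Library ratios had exact conditional binomial intervals. Regions were tested with edgeR 4.0.16 (filterByExpr, TMM, glmQLFTest, library as block). Both regions of a library came from the same 2 mice, which is where the pairing comes from. On simulated counts edgeR recovered 62.9% of 2-fold and 84.5% of 4-fold changes in excitatory neuron-like nuclei. It recovered 58.2% and 91% in inhibitory neuron-like nuclei, and 20.8% and 67.7% in astrocyte-like nuclei. Of its calls, 3.38%, 5.73% and 2.25% were false, in that order. The simulation used the same fixed dispersion for every gene, not estimated from these data, so these shares need not hold for the real sums. The genes and lists were chosen with earlier results of these data known. Values are given for up to 3 genes per class, state or subtype by ratio to the next, all genes past 2-fold, up to 10 called genes per region comparison, and Cdh1, Cdh2, Cdh5, Cdh11 and Cdh18. In all, 26 alternatives were planned and 5 added after the data were seen.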

Additional observations from a re-analysis of the deposited data

Results flagged for a closer look

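In 5 cases with a log2 ratio of at least 1 in a sex, and with counting intervals that lay on opposite sides of 0, the ratio between libraries (library labelled cKO over Ctrl, log2) pointed in opposite directions in the nuclei assigned to the female and to the male mouse of each library. With 1 mouse of each sex per library these differences were not tested. Cdh18 stood at -1.96 for the female and 1.32 for the male mice in lesional astrocyte-like nuclei, at 1.23 and -0.40 in excitatory neuron-like nuclei and at 0.38 and -1.07 in inhibitory neuron-like nuclei. Cdh8 stood at 1.65 and -0.60, and Cdh13 at 0.23 and -1.25, in inhibitory neuron-like nuclei. Subtypes differed beside these values: of 48 lesional striatal projection-like nuclei in the library labelled cKO, 42 came from the female mouse. The part of subtypes in these values was not tested.

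For 9 genes the log2 change from parenchyma to lesion differed between astrocyte-like and excitatory neuron-like nuclei by edgeR's interaction term. The difference, astrocyte-like minus excitatory neuron-like, was -1.96 for Cdh10, -1.60 for Pcdh7, -1.46 for Pcdh9, -1.39 for Cdh20 (edgeR adjusted p = 2.9e-07), -1.38 for Cdh4 (0.00063) and -0.94 for Pcdh10 (0.0015). It was 2.24 for Cdh22 (edgeR adjusted p = 0.0053), 2.08 for Pcdh15 (9.1e-07) and 1.41 for Cdh13 (0.0018).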

How the results depend on the processing

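Counts of genes past 2-fold between libraries moved with the setting (fibroblast-like, myeloid-like, astrocyte-like, excitatory and inhibitory neuron-like had 0, 0, 1, 0 and 2). In female mice alone they were 2 in fibroblast-like, 3 in myeloid-like, 1 in excitatory and 4 in inhibitory neuron-like nuclei. Over all genes, the female mice gave 312 of 11873, 337 of 9877, 150 of 7354 and 465 of 4499 there. In male mice the counts were 1, 1, 2, 3 and 4. Over all genes, the male mice gave 86 of 11964, 94 of 8218, 169 of 4950, 224 of 6169 and 105 of 2488. A fold of 1.5 gave 5 of 27, 5 of 22, 3 of 21, 2 of 22 and 7 of 20. Over all genes, this fold gave 812 of 14296, 785 of 12339, 949 of 9607, 720 of 9737 and 1339 of 6256. Nuclei weighted alike gave 1 in myeloid-like and 0 in astrocyte-like nuclei, a minimum of 20 UMIs gave 2 in astrocyte-like nuclei, and resolution 0.25 gave 0 in astrocyte-like, 1 in excitatory and 1 in inhibitory neuron-like nuclei. Over all genes, nuclei weighted alike gave 92 of 12339 and 132 of 9607, and the minimum of 20 UMIs gave 496 of 12585. Resolution 0.25 gave 106 of 10206, 131 of 10450 and 348 of 6672 over all genes. Trimmed-mean scaling and the removal of both-sex barcodes each left 1 in inhibitory neuron-like nuclei (401 of 6256 and 347 of 5729 over all genes). Cdh8 there reversed in male mice, at -0.60.

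Lesion against parenchyma, DESeq2 called 6 of the excitatory genes and 5 partners (1796 against 5410 over all genes). Thinned nuclei gave 3 (420 over all genes), and 5 for the interaction. Inhibitory neuron-like nuclei gave 1 without a filter (1258 over all genes). Fitted values reversed for Pcdh11x with thinned nuclei (-0.11), for Cdh6 (-0.49) and Cdh9 (0.89) within middle layer-like neurons, and for Cdh9 with the Hs3st4-led cluster included (0.12). Without the replicate block, 13 excitatory, 8 astrocyte and 1 inhibitory genes were called, where 5315, 2001 and 781 of all genes were. The excitatory call lost was Pcdh17, and 8 of 8 astrocyte calls stayed. Leaving out a library left no residual degrees of freedom, so it gave values with no test: 14 of 14 excitatory and 8 of 8 astrocyte genes kept their direction. These genes had been called on the same libraries, so their direction in each of them is not a separate check.

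Unthinned shares, libraries labelled Ctrl and cKO, were 82.4% and 82.0% for Cdh11, 18.3% and 26.7% for Cdh18 and 7.95% and 6.37% for Cdh1 in fibroblast-like, 49.1% and 62.3% for Cdh5 in endothelial-like, and 69.2% and 79.8% for Cdh2 in astrocyte-like nuclei. Among classes, 13 of 19 highest classes stayed at resolution 0.25, where the oligodendrocyte precursor-like class was merged, 18 at resolution 1 and 17 without both-sex barcodes. Leaving out a library aside, 208 of 261 single-gene values stayed the same, 32 lost the call, 16 moved and 5 reversed. For ratios between classes, a value stayed if the highest class stayed and moved if another class was highest. For ratios between libraries, a value stayed if it lay within the main counting interval. It moved if it kept its direction but lay outside that interval. For region changes, a value stayed if it kept its direction and its call. Astrocyte-like nuclei of the parenchyma numbered 37 and 45, which limits depth there.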
